A study of Homo sapiens with 9 samples.

Results

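The genes described here encode proteins that build, cut, cap, bundle, crosslink or anchor actin filaments. They were taken from a list of 59 gene symbols, fixed by name and role, and matched by symbol to the expression table. Of the 59 genes, 58 were among the 16586 genes of the table, and 57 of them passed the filter on low values and were tested. PLS3 had no row in the table, and MYO1E, a class I myosin, stayed under the filter. The list was drawn up with earlier results of these data known, so its share of changed genes is not independent evidence about actin genes.

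The RNA came from Z138, an established mantle cell lymphoma line that expresses the transcription factor SOX11. The study compared 3 groups of 3 libraries, all grown in the same standard medium with fetal bovine serum. The wild-type group is the line labelled WT, the knockout group lacks SOX11 by label (SOX11KO), and the rescue group carries the knockout together with SOX11 put back (SOX11KO+SOX11Rescue). Replicates 1, 2 and 3 of each group belong to labelled batches 1, 2 and 3. The labels do not say which vector or promoter drives the rescue, whether either modified line is 1 clone, or whether replicates are separate cultures. The p-values therefore measure the spread between these libraries, which may be technical.

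Actin cycles between monomers and filaments. Formins start and elongate straight filaments, the ARP2/3 complex starts branches when WASP and WAVE proteins activate it, and Ena/VASP proteins keep growing ends free of capping protein. Profilins and thymosins hold the monomer pool, cofilins and GMF proteins take filaments and branches apart, and bundlers, tropomyosins and ERM proteins set how filaments are packed and tied to the membrane. In B lymphocytes this machinery is known for its part in migration, adhesion and the spreading of antigen receptor contacts.

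The depth recovered from the values was about 30800000 to 40800000 reads per library, and within-group correlations over genes were 0.995 to 0.998. Values are given as normalized counts recovered from the deposited log2 values, and a gene was called when its adjusted p (limma, Benjamini-Hochberg over all 11542 tested genes) was at or below 0.05. Fold differences are ratios of mean normalized counts, and log2 differences are on the deposited scale, which is compressed for low genes. All 7 B cell markers were tested and their summed level was 4233 to 4940 CPM (counts scaled to a fixed library total) in the wild type, 5642 to 6415 in the knockout and 4213 to 4800 in the rescue. CD74 made up most of this sum, with 2978 to 3467 CPM in the wild type and 4409 to 5045 in the knockout, while CD79B was lower in every knockout library (141 to 167, against 171 to 196), PAX5 went from 253 to 399 in the wild type to 176 to 270 in the knockout, and CD79A overlapped. Of 7 T and NK cell markers 6 had a row, and they summed to 10.2 to 14.3, 16.6 to 19.7 and 14.1 to 14.8 CPM in the same order. CD3G made up most of this sum, with 8.17 to 12.4 CPM in the wild type and 13 to 15.8 in the knockout. CD3E and NKG7 were also higher in every knockout library. CD8A was lower there (0 to 0.082, against 0.307 to 0.355), and CD3D and GNLY overlapped. The 4 of 6 myeloid markers with a row summed to 0.437 to 0.649, 1.241 to 1.36 and 1.285 to 1.62 CPM, and CD14 and CSF1R were at 0 in some libraries. The 4 of 6 epithelial and endothelial markers with a row summed to 8.27 to 10.55, 12.1 to 16.6 and 6.275 to 6.98 CPM, most of it PECAM1. The part of these shifts in the results on actin genes was not tested. In these bulk libraries fewer cells of a type and less RNA per cell cannot be told apart.

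SOX11 itself (chr2:5692667-5701385, plus strand in GRCh38) stood at 3800.4, 3845 and 3003 normalized counts in wild-type replicates 1 to 3, 901, 1335 and 862 in the 3 knockout and 12818, 13849 and 12715 in the 3 rescue libraries. The knockout mean was 29.1% of the wild type and the rescue mean 369.8% of it, with no overlap between any groups. Transcript of the targeted gene was thus lower but present in the libraries labelled knockout, and the rescue expressed more of it than the parent line. The labels do not give the position of the disrupted sequence, so its transcript level is no check of the protein.

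Actin genes moved in both directions in the knockout, and by ratio of mean normalized counts the deepest changes were falls. In the knockout against the wild type 23 of 57 members were called (40.4%, against 12.7% of all tested genes), 9 higher and 14 lower (background 5.36% and 7.37%). The deepest falls were in SVIL, a membrane-linked actin binder, at 31.0-fold, in CRACD, an inhibitor of capping protein, at 25.2-fold, and in the formin FMNL2 at 13.1-fold. The largest rises were in AHNAK, a giant scaffold under the membrane, at 3.17-fold, the debranching factor GMFG at 2.82-fold, the coronin CORO2B at 2.65-fold and the LIM-domain protein ABLIM1 at 2.29-fold. On the deposited log2 scale, which is compressed for low genes, the rise of AHNAK (1.45) was larger than the falls of FMNL2 (-1.35), CRACD (-1.33) and SVIL (-0.79). At least 2-fold differences were called for 10 members, 4 higher and 6 lower (background 3.86%), and 37 of 57 had groups that did not overlap (background 29.5%). The median log2 difference over the 57 members was 0.04, beside 0.00 over all tested genes.

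**Figure D1:**
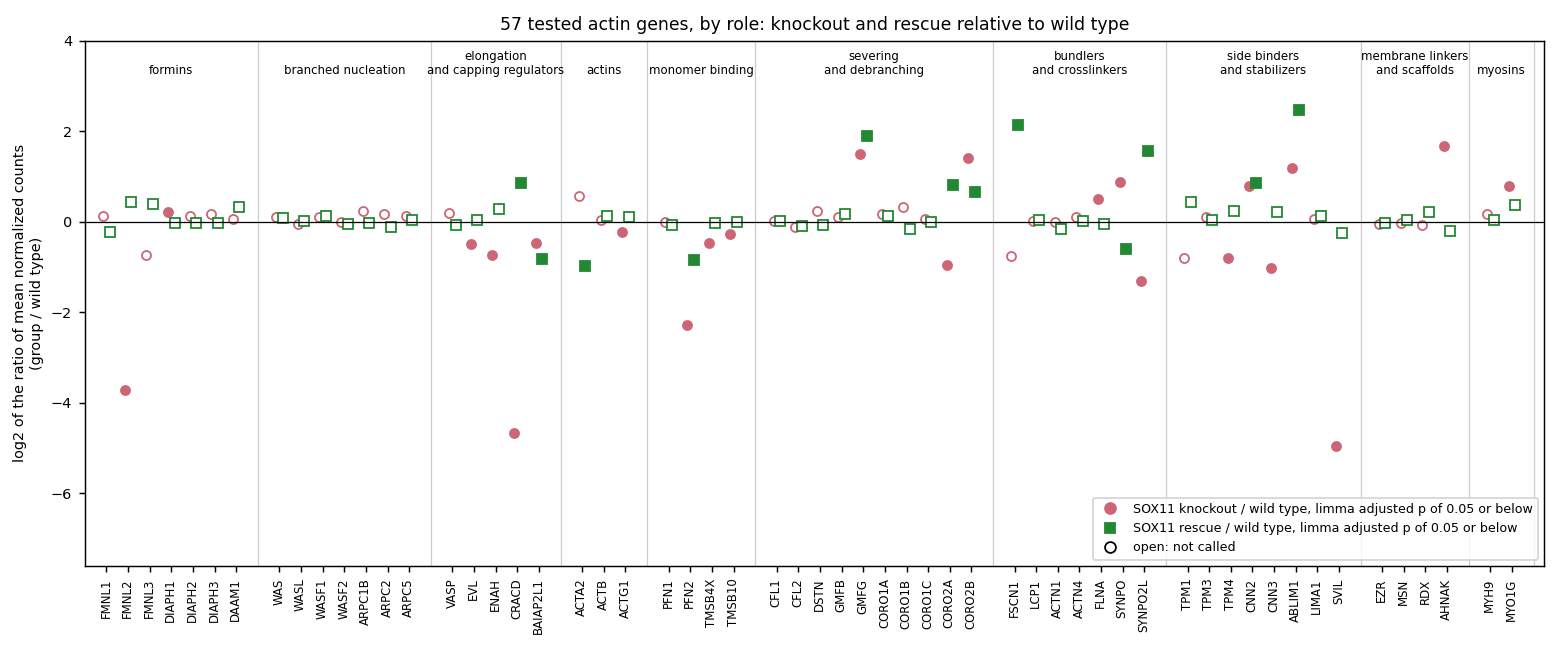
Log2 ratio of mean normalized counts of the knockout (circles) and the rescue (squares) to the wild type for each of the 57 tested members, arranged by role, with filled symbols for called differences (3 libraries per group). FMNL2, CRACD and SVIL lie far below the other genes in the knockout and near or above the wild type in the rescue, while ABLIM1, FSCN1 and GMFG stand highest in the rescue.

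The rescue differed from the knockout mostly where the knockout had differed from the wild type. In the rescue against the knockout 30 members were called (52.6%, against 22.1% of all tested genes), 17 higher and 13 lower (background 11.5% and 10.7%), and 16 of the calls were at least 2-fold, 13 higher and 3 lower (background 4.64%). The groups did not overlap for 36 of 57 members, beside 41.8% of all tested genes. The 2 comparisons share the knockout libraries, so opposite signs in them are not independent. Of the members, 19 were called in the knockout and called in the opposite direction in the rescue (background 9.70%), 13 of them lower and then higher (background 5.57%) and 6 higher and then lower (background 4.13%). The 13 were FMNL2, EVL, ENAH, CRACD, ACTG1, PFN2, TMSB4X, TMSB10, CORO2A, SYNPO2L, TPM4, CNN3 and SVIL. The 6 were DIAPH1, CORO2B, FLNA, SYNPO, AHNAK and MYO1G.

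Several genes did not return to the wild-type level in the rescue. Against the wild type 12 members were called (21.1%, against 4.07% of all tested genes), 8 higher and 4 lower (background 2.30% and 1.78%). The 4 called at least 2-fold were all higher in the rescue (background 1.57%): ABLIM1, FSCN1, GMFG and SYNPO2L. All 23, 30 and 12 called differences of the 3 comparisons had the same sign within each of the 3 batches. Of all 57 tested members 39, 44 and 34 did so. The calls were made on the same libraries, so these signs are not independent of them. ABLIM1 was called higher in each step, from wild type to knockout and from knockout to rescue. Groups did not overlap for 19 of 57 members, beside 20.8% of all tested genes. The other 24 tested members were called in no comparison, among them ACTB, PFN1, CFL1, LCP1, EZR and MSN.

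Promoter sequence was examined because 19 members moved in opposite directions in the 2 steps. RefSeq windows (GRCh38.p14) of 300 bases, 250 before and 50 after the gene start, were matched for 53 of the 59 genes and not for ACTB, ARPC1B, FSCN1, GMFB, PFN2 and WASF2. Letters were searched on both strands for AACAAAG and AACAATG, forms of the core bound by SOX proteins, and for the CArG box, the element bound by serum response factor. No 2 matches overlapped. AACAAAG was in 1 of 53 member promoters (1.89%), that of ENAH, and in 5.20% of 35116 promoters. AACAATG was in 1 (1.89%), that of ABLIM1, and in 3.33% of all. The CArG box was in 5 of 53 (9.43%), ACTG1, TPM4, FLNA, CNN2 and MYO1E, and in 1.29% of all promoters. Members had 1 window each, while the share of all promoters was taken over all 35116 windows without keeping 1 per gene. The shares are therefore over unlike sets. A match is a description of letters, not a binding site.

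The stretches around the CArG boxes are shown because the 4 tested genes that held one moved in both directions, and those of ENAH and ABLIM1 because they alone held SOX-type letters. Capitals mark the match, on the strand of the gene, 5′ to 3′, and the ABLIM1 match is on the opposite strand. Coordinates are chr17:81512859-81512918, minus strand for ACTG1, chr19:16067340-16067399, plus strand for TPM4, chrX:154374694-154374753, minus strand for FLNA, chr19:1026494-1026553, plus strand for CNN2, chr1:225653333-225653373, minus strand for ENAH and chr10:114685033-114685089, minus strand for ABLIM1.
ACTG1: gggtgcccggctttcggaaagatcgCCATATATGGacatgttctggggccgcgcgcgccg
TPM4: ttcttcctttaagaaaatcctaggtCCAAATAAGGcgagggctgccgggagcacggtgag
FLNA: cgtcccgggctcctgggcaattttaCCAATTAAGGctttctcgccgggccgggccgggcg
CNN2: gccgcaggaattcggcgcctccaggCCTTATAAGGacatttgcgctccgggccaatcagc
ENAH: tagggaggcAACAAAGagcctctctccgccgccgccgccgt
ABLIM1: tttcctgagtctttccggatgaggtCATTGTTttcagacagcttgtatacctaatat
The boxes begin 94 bases before the start of ACTG1, 173 before TPM4, 94 before FLNA and 89 before CNN2, and the SOX-type letters begin 241 bases before ENAH and 61 before ABLIM1. ACTG1 and TPM4 fell in the knockout and FLNA and CNN2 rose. The 3 members with the deepest falls, FMNL2, CRACD and SVIL, had none of these letters in their windows.

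Among the formins, which start and elongate unbranched filaments, FMNL2 was the member that changed most. FMNL2 (chr2:152335237-152649834, plus strand) stood at 1015, 581 and 817 normalized counts in wild-type replicates 1 to 3, 74.3, 38.01 and 72.6 in the 3 knockout and 1232, 979 and 1064 in the 3 rescue libraries. The 3 knockout libraries lie far below every other library. It was 13.1-fold lower (log2 difference -1.35 ± 0.11 SE, adjusted p = 1.14e-05) in the knockout and 17.7-fold higher (log2 difference 1.63 ± 0.11 SE, adjusted p = 1.73e-06) in the rescue than in the knockout. Its level in the rescue was 1.36-fold higher than in the wild type, not called (adjusted p = 0.201) but called with the replicate block (adjusted p = 0.0193).

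FMNL3 and FMNL1, the nearest relatives of FMNL2, had smaller differences. FMNL3 (chr12:49636499-49708165, minus strand) stood at 328, 547 and 367 normalized counts in wild-type replicates 1 to 3, 242, 285 and 221 in the 3 knockout and 381, 646 and 598 in the 3 rescue libraries. All knockout values are below all others, but wild-type replicate 2 and rescue replicate 1 spread their groups. FMNL3 was 1.66-fold lower in the knockout, not called (adjusted p = 0.0989, and 0.0139 with the replicate block), and 2.17-fold higher (log2 difference 0.48 ± 0.11 SE, adjusted p = 0.00782) in the rescue than in the knockout. Its exons overlap those of PRPF40B on the other strand over 2643 bases, and strand use in the counting is not known. FMNL1, the leukocyte formin, had 5519 ± 40.8 normalized counts in the wild type, against 6016 ± 490.2 in the knockout and 4753 ± 65.0 in the rescue. FMNL1 was 1.27-fold lower (log2 difference -0.30 ± 0.06 SE, adjusted p = 0.00288) in the rescue than in the knockout, and with the replicate block also lower than in the wild type (adjusted p = 0.0442).

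The diaphanous formins moved little. DIAPH1, the formin with the highest level per kb of exon, stood at 5963, 6685 and 6527 normalized counts in wild-type replicates 1 to 3, 7202, 7666 and 7386 in the 3 knockout and 6134, 6569 and 6139 in the 3 rescue libraries. In the knockout every library is above all the others by a small margin, 1.16-fold higher (log2 difference 0.20 ± 0.05 SE, adjusted p = 0.0351) than the wild type, and the rescue was 1.18-fold lower (log2 difference -0.22 ± 0.05 SE, adjusted p = 0.0140) than the knockout. DIAPH3 went from 2749 ± 94.0 in the knockout to 2413 ± 44.3 in the rescue, 1.14-fold lower (log2 difference -0.15 ± 0.05 SE, adjusted p = 0.0457). DIAPH2 and the Wnt-pathway formin DAAM1 were called in no comparison, with values from 892 to 1504 normalized counts. The small formin calls depend on single libraries. That of DIAPH1 in the knockout was lost without wild-type replicate 1 or 3, any 1 knockout library, rescue replicate 3 or any 1 batch, or under quantile normalization or with only the 2 groups in the fit (adjusted p = 0.0533 to 0.247), and in the rescue without knockout replicate 2, rescue replicate 1 or 3 or batch 1 or 3 (adjusted p = 0.0509 to 0.148). That of DIAPH3 was lost without wild-type replicate 1, any 1 knockout library, any 1 rescue library or any 1 batch, or with no filter, on the log2(CPM + 1) scale or under quantile normalization (adjusted p = 0.0554 to 0.246). In the rescue FMNL1 was lost without batch 3 (adjusted p = 0.0764), as was FMNL3 (adjusted p = 0.152).

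Among elongation and capping regulators 4 of 5 members were called lower in the knockout, beside 7.37% of all tested genes. Of these 4, 3 were called higher in the rescue than in the knockout. Over all tested genes, 643 of the 851 called lower in the knockout were likewise called higher in the rescue, a share close to 3 of 4. CRACD (chr4:56049073-56328625, plus strand), which binds capping protein and so leaves filament ends free to grow, stood at 673, 516 and 573 normalized counts in wild-type replicates 1 to 3, 22.9, 11.9 and 35.1 in the 3 knockout and 940.0, 1056 and 1193 in the 3 rescue libraries. Knockout libraries are near the bottom of the measured range and rescue libraries are above every wild-type library. CRACD was 25.2-fold lower (log2 difference -1.33 ± 0.07 SE, adjusted p = 1.19e-06) in the knockout, 45.6-fold higher (log2 difference 1.83 ± 0.07 SE, adjusted p = 8.92e-08) in the rescue than in the knockout and 1.81-fold higher (log2 difference 0.50 ± 0.07 SE, adjusted p = 0.00324) in the rescue than in the wild type. The last call was lost without batch 3 (adjusted p = 0.108).

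The Ena/VASP proteins split. ENAH (chr1:225486835-225653142, minus strand), whose promoter letters are shown above, stood at 4232, 2613 and 3721 normalized counts in wild-type replicates 1 to 3, 2099, 2113 and 2136 in the 3 knockout and 4726, 4209.6 and 3890.1 in the 3 rescue libraries. Knockout values of ENAH are nearly equal to each other and below all the others, and wild-type replicate 2 is the lowest of its group. ENAH was 1.66-fold lower (log2 difference -0.57 ± 0.12 SE, adjusted p = 0.00871) in the knockout and 2.02-fold higher (log2 difference 0.82 ± 0.12 SE, adjusted p = 5.60e-04) in the rescue than in the knockout, the first lost without batch 1 or 3 (adjusted p = 0.1004 to 0.134). EVL, the family member typical of blood cells, went from 3130.5 ± 48.0 to 2241 ± 47.1 in the knockout and to 3226 ± 23.8 in the rescue, 1.40-fold lower (adjusted p = 1.44e-04) and then 1.44-fold higher (adjusted p = 4.99e-05). VASP, the highest of this role per kb, stood at 2055, 2404 and 2143 normalized counts in wild-type replicates 1 to 3, 2510.1, 2602 and 2415 in the 3 knockout and 1972, 2106 and 2213 in the 3 rescue libraries. Its knockout was 1.14-fold higher than the wild type, not called (adjusted p = 0.131), and the rescue was 1.20-fold lower (log2 difference -0.20 ± 0.06 SE, adjusted p = 0.0316) than the knockout. The VASP call was lost without any 1 knockout library, rescue replicate 1 or 2 or any 1 batch (adjusted p = 0.0527 to 0.222).

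BAIAP2L1, an I-BAR protein that bends membrane and recruits actin regulators, was lower in both modified lines. It had 554 ± 84.8 normalized counts in the wild type, against 404 ± 47.7 in the knockout and 314 ± 9.004 in the rescue. Against the wild type the knockout was 1.37-fold lower (adjusted p = 0.0499) and the rescue 1.76-fold lower (adjusted p = 0.00804). The first was no longer called without wild-type replicate 1 or 3, any 1 knockout library, any 1 rescue library or batch 1 or 3, or with no filter, under the stricter filter, on the log2(CPM + 1) scale, under quantile normalization or with only the 2 groups in the fit (adjusted p = 0.0506 to 0.359), and the second without batch 1 or 3 (adjusted p = 0.137 to 0.168). Its exons overlap BRI3 on the other strand over 795 bases.

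Branched nucleation starts when WASP and WAVE proteins switch on the ARP2/3 complex. None of the 7 members (WAS, WASL, WASF1, WASF2, ARPC1B, ARPC2, ARPC5) was called in the knockout against the wild type or in the rescue against the wild type with limma (unadjusted p of 0.05 or below for 3 and 0 of them), and 2 (28.6%) were called lower in the rescue than in the knockout. Of all tested genes 12.7%, 4.07% and 10.7% were so called. ARPC2, a core subunit of the ARP2/3 complex and the highest of this role per kb, stood at 9283, 10749.7 and 10113 normalized counts in wild-type replicates 1 to 3, 11101, 11758 and 11275 in the 3 knockout and 8887, 9376 and 9465 in the 3 rescue libraries. The 3 knockout values are the highest and the lowest value is a rescue library. ARPC2 was 1.23-fold lower (log2 difference -0.28 ± 0.06 SE, adjusted p = 0.00493) in the rescue than in the knockout, and in the knockout against the wild type it had an adjusted p of 0.0758, which was 0.0160 with the replicate block. ARPC1B, the subunit typical of blood cells, had 5871 ± 332, 6890.2 ± 323 and 5759 ± 596 normalized counts in wild type, knockout and rescue. It was 1.20-fold lower in the rescue than in the knockout (adjusted p = 0.0315). ARPC1B shares 1292 exonic bases on the same strand with AC004922.1, a protein-coding gene without a row, so its counts are uncertain. With the replicate block ARPC1B (0.0212) and ARPC5 (0.0448) also had an adjusted p under the threshold in the knockout, in both cases higher, by 1.17-fold and 1.10-fold. The rescue call of ARPC2 was lost without batch 3 (adjusted p = 0.0659), and that of ARPC1B without any 1 knockout library, rescue replicate 1 or 2 or any 1 batch, or under quantile normalization (adjusted p = 0.0582 to 0.147). WAS, the WASP of blood cells, lay between 2819 and 3219 normalized counts over all 9 libraries, and WASL, WASF1 and WASF2 had overlapping groups in every comparison.

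Of the actins, cytoplasmic gamma-actin moved and beta-actin was not called. ACTB stood at 150606, 167381 and 145228 normalized counts in wild-type replicates 1 to 3, 161062, 164169 and 149032 in the 3 knockout and 170439.5, 175834 and 159045 in the 3 rescue libraries, and its groups overlap. ACTG1 had 102877 ± 4634 normalized counts in the wild type, against 88349 ± 2883 in the knockout and 110104 ± 6584 in the rescue, 1.16-fold lower (adjusted p = 0.0385) and then 1.246-fold higher (adjusted p = 0.00378). The knockout call of ACTG1 was lost without wild-type replicate 1 or 2, any 1 knockout library, rescue replicate 1 or 2 or any 1 batch, or with only the 2 groups in the fit (adjusted p = 0.0531 to 0.239), and the rescue call without batch 1 (adjusted p = 0.0534). Both genes have many named pseudogenes in the annotation, 10 for ACTB and 20 for ACTG1, and reads can be split among such copies.

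ACTA2 (chr10:88935074-88991339, minus strand), the actin of smooth muscle, was a low-level transcript that differed most between the knockout and the rescue. It stood at 205, 212 and 346 normalized counts in wild-type replicates 1 to 3, 355, 370.4 and 416 in the 3 knockout and 149.9, 118 and 119.9 in the 3 rescue libraries. The rescue libraries are below all the others, and wild-type replicate 3 approaches the knockout. ACTA2 was 2.94-fold lower (log2 difference -0.56 ± 0.08 SE, adjusted p = 3.60e-04) in the rescue than in the knockout and 1.97-fold lower (log2 difference -0.31 ± 0.08 SE, adjusted p = 0.0443) in the rescue than in the wild type. In the knockout it was 1.49-fold higher than in the wild type, not called (adjusted p = 0.0544, and 0.0248 with the replicate block). ACTA2 was no longer called against the wild type without wild-type replicate 3, any 1 knockout library, any 1 rescue library or any 1 batch, or under the stricter filter or with only the 2 groups in the fit (adjusted p = 0.0515 to 0.296). Of 8 fibroblast and smooth muscle markers 7 had a row and summed to 30.3 to 38.3 CPM in the wild type, 32.3 to 40.3 in the knockout and 23.8 to 30.3 in the rescue. COL1A1 made up most of this sum, at 20.2 to 36.5 CPM, and the other 6, TAGLN, MYH11, DES, CNN1, COL1A2 and PDGFRB, reached at most 2.27 CPM, with CNN1 and COL1A2 at 0 in some libraries. ACTA2 exons overlap those of FAS on the other strand over 380 bases.

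Monomer-binding genes fell in the knockout for 3 of 4 members and rose again in the rescue for the same 3, beside 5.57% of all tested genes. PFN2 (chr3:149964904-150050788, minus strand), the profilin best known from brain, stood at 516, 325 and 433 normalized counts in wild-type replicates 1 to 3, 97.9, 79.1 and 86.0 in the 3 knockout and 288, 205 and 223 in the 3 rescue libraries. Wild type, knockout and rescue occupy 3 separate ranges, with the rescue in the middle. PFN2 was 4.84-fold lower (log2 difference -0.76 ± 0.08 SE, adjusted p = 5.75e-05) in the knockout, 2.72-fold higher (log2 difference 0.42 ± 0.08 SE, adjusted p = 0.00243) in the rescue than in the knockout and 1.78-fold lower (log2 difference -0.34 ± 0.08 SE, adjusted p = 0.0310) in the rescue than in the wild type. The call between rescue and knockout was lost without batch 3 (adjusted p = 0.0604), and that between rescue and wild type without wild-type replicate 1 or 3, knockout replicate 3, rescue replicate 2 or 3 or batch 1 or 3, or with only the 2 groups in the fit (adjusted p = 0.0516 to 0.344). PFN1, the ubiquitous profilin, was called in no comparison, at 42855 ± 3271, 42642 ± 872 and 41042 ± 589 normalized counts in wild type, knockout and rescue.

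The thymosins, which hold monomers out of assembly, fell less but at far higher levels. TMSB10, the highest of the role per kb, stood at 28117, 33417 and 31168 normalized counts in wild-type replicates 1 to 3, 24393, 25994 and 26390.1 in the 3 knockout and 30711, 30747 and 31336 in the 3 rescue libraries. All 3 knockout values are below all the others. TMSB10 was 1.21-fold lower (log2 difference -0.26 ± 0.06 SE, adjusted p = 0.0188) in the knockout and 1.21-fold higher (log2 difference 0.27 ± 0.06 SE, adjusted p = 0.0109) in the rescue than in the knockout, and these calls were lost without knockout replicate 1 or any 1 batch (adjusted p = 0.0554 to 0.134) and without knockout replicate 1 or batch 1 or 3 (adjusted p = 0.0554 to 0.102), respectively. TMSB4X went from 21278 ± 2272 to 15423 ± 913 and back to 20857 ± 917 normalized counts, 1.38-fold lower (adjusted p = 0.00219) and then 1.35-fold higher (adjusted p = 0.00200).

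**Figure D2:**
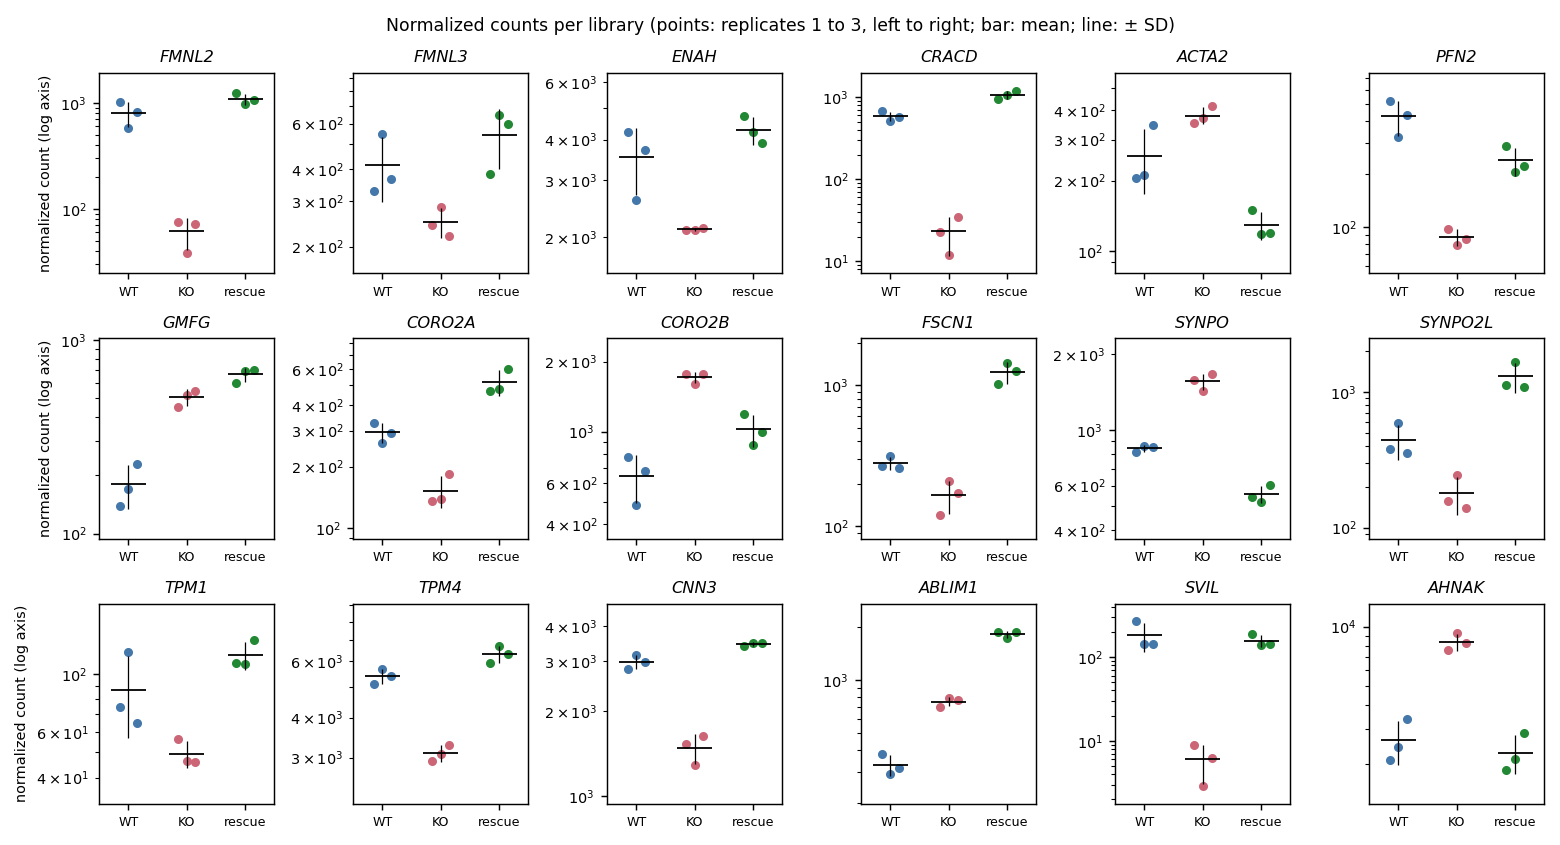
Normalized counts (log axes, 1 scale per gene) in each of the 9 libraries for the 18 members called with at least a 2-fold difference in some comparison, with wild type in blue, knockout in red and rescue in green, bars for the mean and lines for the SD of 3 libraries. FMNL2, CRACD and SVIL drop to between 2.89 and 74.3 normalized counts in the knockout, and AHNAK, CORO2B and SYNPO show the opposite shape.

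Among severing and debranching factors the type II coronins, GMFG and DSTN were called in some comparison, and the abundant cofilin was not. CFL1, the main cofilin of non-muscle cells, stood at 33911, 37623 and 36103 normalized counts in wild-type replicates 1 to 3, 36421, 37872 and 34998 in the 3 knockout and 36521, 37239 and 35482 in the 3 rescue libraries, and its groups overlap. GMFG (chr19:39328353-39342372, minus strand), the glia maturation factor of blood cells that removes ARP2/3 branches, stood at 139, 171 and 230.0 normalized counts in wild-type replicates 1 to 3, 449.8, 519.8 and 548 in the 3 knockout and 599, 695 and 699 in the 3 rescue libraries. Every knockout and rescue library is above every wild-type library, and the rescue did not stand nearer to the wild type than the knockout did. GMFG was 2.82-fold higher (log2 difference 0.61 ± 0.07 SE, adjusted p = 1.52e-04) in the knockout and 3.70-fold higher (log2 difference 0.81 ± 0.07 SE, adjusted p = 6.41e-05) in the rescue than in the wild type. Between rescue and knockout it was 1.31-fold higher, not called (adjusted p = 0.0560) but called with the replicate block (0.00855). Its paralog GMFB was called in no comparison, at 2807 ± 337, 3019 ± 272 and 3177 ± 90.9 normalized counts.

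The type II coronins, which tie filaments to membrane and adhesion sites, changed in opposite directions. CORO2B (chr15:68578969-68727806, plus strand) stood at 778, 483 and 677 normalized counts in wild-type replicates 1 to 3, 1769, 1595 and 1764 in the 3 knockout and 1192, 874 and 1000.0 in the 3 rescue libraries. Its rescue libraries lie between the wild type and the knockout. CORO2B was 2.65-fold higher (log2 difference 0.90 ± 0.10 SE, adjusted p = 9.22e-05) in the knockout, 1.67-fold lower (log2 difference -0.51 ± 0.10 SE, adjusted p = 0.00310) in the rescue than in the knockout and 1.58-fold higher (log2 difference 0.39 ± 0.10 SE, adjusted p = 0.0439) in the rescue than in the wild type. CORO2A (chr9:98120975-98192640, minus strand) stood at 326, 262 and 293 normalized counts in wild-type replicates 1 to 3, 135, 138.42 and 184 in the 3 knockout and 469, 476 and 601 in the 3 rescue libraries. Knockout libraries are the 3 lowest and rescue libraries the 3 highest. CORO2A was 1.93-fold lower (log2 difference -0.33 ± 0.07 SE, adjusted p = 0.00636) in the knockout, 3.38-fold higher (log2 difference 0.69 ± 0.07 SE, adjusted p = 2.76e-05) in the rescue than in the knockout and 1.76-fold higher (log2 difference 0.36 ± 0.07 SE, adjusted p = 0.00986) in the rescue than in the wild type. The calls of CORO2B against the knockout and against the wild type were lost without batch 3 (adjusted p = 0.0867) and without wild-type replicate 2 or 3, any 1 knockout library, rescue replicate 1 or 3 or batch 1 or 3, or on the log2(CPM + 1) scale, under quantile normalization or with only the 2 groups in the fit (adjusted p = 0.0513 to 0.305), and those of CORO2A in the knockout and in the rescue against the wild type without batch 1 (adjusted p = 0.129) and without any 1 batch (adjusted p = 0.0584 to 0.134).

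The type I coronins CORO1A, CORO1B and CORO1C were not called in any comparison. CORO1A, the leukocyte coronin, had 9915 ± 597, 11239 ± 563 and 10846 ± 569.8 normalized counts, with an adjusted p in the knockout of 0.0906, and 0.0180 with the replicate block. CORO1B shares 1292 exonic bases with PTPRCAP on the same strand, so its counts are uncertain. DSTN, a relative of cofilin that depolymerizes filaments, was 1.23-fold lower (log2 difference -0.23 ± 0.06 SE, adjusted p = 0.0152) in the rescue than in the knockout, at 1870.4 ± 81.5 and 2302 ± 142 normalized counts. In the knockout against the wild type its adjusted p was 0.0648, and 0.0168 with the replicate block. The DSTN call was lost without knockout replicate 1, rescue replicate 3 or batch 1 or 3 (adjusted p = 0.0664 to 0.120). The muscle cofilin CFL2 was not called.

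Bundlers and crosslinkers were called in 3 of 7 members in the knockout (2 higher, 1 lower) and in 4 of 7 in the rescue against the knockout (2 higher, 2 lower), beside 12.7% and 22.1% of all tested genes. FSCN1 (chr7:5592823-5606655, plus strand), the fascin that packs filaments into tight parallel bundles, stood at 267, 315 and 258 normalized counts in wild-type replicates 1 to 3, 120.3, 208 and 171 in the 3 knockout and 1011, 1444 and 1256 in the 3 rescue libraries. The rescue libraries are all several times above the other groups. FSCN1 was 7.43-fold higher (log2 difference 1.39 ± 0.09 SE, adjusted p = 1.55e-06) in the rescue than in the knockout and 4.42-fold higher (log2 difference 1.12 ± 0.09 SE, adjusted p = 3.27e-05) in the rescue than in the wild type. In the knockout it was 1.68-fold lower than in the wild type, with no overlap of the libraries, not called (adjusted p = 0.0695) but called with the replicate block (0.00722).

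SYNPO2L and SYNPO, synaptopodin-family proteins that bind actin and alpha-actinin, went opposite ways. SYNPO2L (chr10:73644881-73663803, minus strand) stood at 382, 589 and 355 normalized counts in wild-type replicates 1 to 3, 156, 245 and 139 in the 3 knockout and 1137, 1682 and 1095 in the 3 rescue libraries. Replicate 2 is the highest of each of its groups, and the groups do not overlap. SYNPO2L was 2.46-fold lower (log2 difference -0.51 ± 0.12 SE, adjusted p = 0.0202) in the knockout, 7.25-fold higher (log2 difference 1.40 ± 0.12 SE, adjusted p = 1.67e-05) in the rescue than in the knockout and 2.95-fold higher (log2 difference 0.89 ± 0.12 SE, adjusted p = 0.00175) in the rescue than in the wild type. SYNPO (chr5:150601080-150659220, plus strand) stood at 813, 863 and 850.4 normalized counts in wild-type replicates 1 to 3, 1575, 1431 and 1659.9 in the 3 knockout and 541, 517 and 602 in the 3 rescue libraries. Here the knockout is highest and the rescue lowest, with no overlap. SYNPO was 1.85-fold higher (log2 difference 0.57 ± 0.06 SE, adjusted p = 5.44e-05) in the knockout, 2.81-fold lower (log2 difference -0.91 ± 0.06 SE, adjusted p = 1.47e-06) in the rescue than in the knockout and 1.52-fold lower (log2 difference -0.34 ± 0.06 SE, adjusted p = 0.00663) in the rescue than in the wild type. The SYNPO2L calls in the knockout and in the rescue against the wild type were lost without wild-type replicate 2, knockout replicate 1 or 3 or batch 1 or 3 (adjusted p = 0.0601 to 0.143) and without batch 3 (adjusted p = 0.0587), and the SYNPO call against the wild type without batch 1 or 3 (adjusted p = 0.0935 to 0.121).

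FLNA, the abundant filamin that crosslinks filaments into networks, had 21348 ± 273 normalized counts in the wild type, against 30134 ± 1279 in the knockout and 20719 ± 591 in the rescue, 1.41-fold higher (adjusted p = 5.94e-05) and then 1.45-fold lower (adjusted p = 2.34e-05). LCP1, the plastin of blood cells and the highest of this role per kb, stood at 35313, 42791 and 39332 normalized counts in wild-type replicates 1 to 3, 39168, 40349.7 and 38517 in the 3 knockout and 36114, 44140.4 and 41298 in the 3 rescue libraries. Its groups overlap and it was not called. The alpha-actinins ACTN1 and ACTN4 were not called either. ACTN1 was near the low end of the table at 53.3 to 112 normalized counts, and ACTN4 shares 868 exonic bases with CAPN12 on the other strand.

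Of 8 filament side binders 5 were called higher in the rescue than in the knockout, each at least 2-fold, and 0 lower (11.5% and 10.7% of all tested genes). SVIL (chr10:29457338-29736781, minus strand), supervillin, which joins filaments and myosin II to the membrane, stood at 267, 146 and 145 normalized counts in wild-type replicates 1 to 3, 8.84, 2.89 and 6.27 in the 3 knockout and 187, 140.1 and 145 in the 3 rescue libraries. Its knockout libraries are close to the floor of 3 reads (2.57 to 3.40 normalized counts by library), and replicate 2 lies under the 3.16 of its own library. SVIL was 31.0-fold lower (log2 difference -0.79 ± 0.08 SE, adjusted p = 4.72e-05) in the knockout and 26.2-fold higher (log2 difference 0.73 ± 0.08 SE, adjusted p = 5.70e-05) in the rescue than in the knockout, and these folds rest on few reads in the knockout. SVIL met the minimum of the filter, 1 CPM, in all wild-type and rescue libraries and in 0 knockout libraries. The rescue overlapped the wild type (adjusted p = 0.737).

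The tropomyosins, which coat filaments and set what else can bind, changed in TPM4 and, at low levels, TPM1. TPM4 (chr19:16067021-16103005, plus strand) stood at 5105, 5671 and 5414 normalized counts in wild-type replicates 1 to 3, 2921, 3081 and 3289 in the 3 knockout and 5917, 6709 and 6338 in the 3 rescue libraries. All 3 knockout libraries are below and all 3 rescue libraries above every wild-type library. TPM4 was 1.74-fold lower (log2 difference -0.68 ± 0.06 SE, adjusted p = 2.30e-05) in the knockout and 2.04-fold higher (log2 difference 0.88 ± 0.06 SE, adjusted p = 2.53e-06) in the rescue than in the knockout. Against the wild type the rescue was 1.17-fold higher, not called (adjusted p = 0.0983) but called with the replicate block (0.0172). TPM1 (chr15:63042632-63071915, plus strand) stood at 74.4, 121 and 64.9 normalized counts in wild-type replicates 1 to 3, 56.2, 46.6 and 45.8 in the 3 knockout and 110.3, 109 and 135 in the 3 rescue libraries. Wild-type replicate 2 overlaps the rescue. TPM1 exons overlap those of TPM1-AS on the other strand over 2070 bases. TPM1 was 2.39-fold higher (log2 difference 0.27 ± 0.06 SE, adjusted p = 0.00622) in the rescue than in the knockout, a call lost without batch 3 (adjusted p = 0.0925), and its knockout was not called (adjusted p = 0.105). TPM3, the highest of this role per kb, stood at 19872, 20006 and 19847 normalized counts in wild-type replicates 1 to 3, 21442, 21944 and 20596 in the 3 knockout and 21111, 20615 and 20129 in the 3 rescue libraries and was not called.

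The calponins, side binders that also mark contractile cells, moved in opposite directions. CNN3 (chr1:94896949-94927278, minus strand) stood at 2814, 3165 and 2984 normalized counts in wild-type replicates 1 to 3, 1533, 1283 and 1635 in the 3 knockout and 3404, 3489.7 and 3493 in the 3 rescue libraries. The knockout libraries lie well below all the others. CNN3 was 2.01-fold lower (log2 difference -0.77 ± 0.07 SE, adjusted p = 1.92e-05) in the knockout and 2.33-fold higher (log2 difference 0.94 ± 0.07 SE, adjusted p = 2.90e-06) in the rescue than in the knockout. CNN2 went from 834 ± 137.97 in the wild type to 1450.1 ± 13.9 in the knockout and 1501 ± 144 in the rescue. CNN2 was 1.74-fold higher in the knockout (adjusted p = 7.07e-04) and 1.80-fold higher in the rescue than in the wild type (adjusted p = 0.00130), the second lost without batch 1 (adjusted p = 0.0555). CNN2 has 11 named pseudogenes. CNN1, the calponin of smooth muscle, is no member and reached at most 0.246 CPM.

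ABLIM1 (chr10:114431113-114685003, minus strand), a LIM-domain protein that binds filaments, stood at 380.0, 293 and 315 normalized counts in wild-type replicates 1 to 3, 701, 789.6 and 771 in the 3 knockout and 1856, 1722 and 1859.9 in the 3 rescue libraries. The 3 groups form 3 separate steps, lowest in the wild type and highest in the rescue. ABLIM1 was 2.29-fold higher (log2 difference 0.59 ± 0.06 SE, adjusted p = 5.44e-05) in the knockout, 2.40-fold higher (log2 difference 0.83 ± 0.06 SE, adjusted p = 3.39e-06) in the rescue than in the knockout and 5.50-fold higher (log2 difference 1.42 ± 0.06 SE, adjusted p = 2.91e-07) in the rescue than in the wild type. It was the member called higher in all 3 comparisons. LIMA1, another LIM-domain actin binder, was not called, at 790.2 ± 98.4, 822 ± 51.6 and 862 ± 72.1 normalized counts.

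Of the membrane linkers, the scaffold AHNAK changed and the ERM proteins did not pass the test. AHNAK (chr11:62433542-62556235, minus strand) stood at 2098, 2429 and 3377 normalized counts in wild-type replicates 1 to 3, 7575, 9265 and 8207 in the 3 knockout and 1860.4, 2122 and 2855 in the 3 rescue libraries. Its knockout libraries are more than double any other, and replicate 3 is the highest of the wild type and of the rescue. AHNAK was 3.17-fold higher (log2 difference 1.45 ± 0.14 SE, adjusted p = 5.30e-05) in the knockout and 3.66-fold lower (log2 difference -1.61 ± 0.14 SE, adjusted p = 1.72e-05) in the rescue than in the knockout, and wild type and rescue overlapped (adjusted p = 0.644). EZR, ezrin, the highest of this role per kb, stood at 18315, 18087 and 17584 normalized counts in wild-type replicates 1 to 3, 16829, 18972 and 16723 in the 3 knockout and 18107, 17920.0 and 16974 in the 3 rescue libraries, with overlapping groups. MSN and RDX, moesin and radixin, were called in no comparison.

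Among the myosins MYO1G, a class I myosin of blood cells, had 1287 ± 156 normalized counts in the wild type, against 2229 ± 150.2 in the knockout and 1678 ± 208 in the rescue. It was 1.73-fold higher in the knockout (adjusted p = 6.45e-04) and 1.33-fold lower in the rescue than in the knockout (adjusted p = 0.0181), the second lost without knockout replicate 2 or 3, rescue replicate 1 or batch 3 (adjusted p = 0.0535 to 0.130). With the replicate block it was also called higher in the rescue than in the wild type (0.00522). MYH9, the heavy chain of non-muscle myosin IIA, stood at 17428, 15584 and 15419 normalized counts in wild-type replicates 1 to 3, 18631, 18276 and 17822 in the 3 knockout and 17362, 16300.1 and 16073 in the 3 rescue libraries. Its knockout libraries are the 3 highest, 1.13-fold higher than the wild type, not called (adjusted p = 0.0723) but called with the replicate block (0.0133), as was the lower level in the rescue than in the knockout (0.120 without and 0.0288 with the block). MYO1E, not tested, lay between 9.37 and 55.2 normalized counts.

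Ratios between related genes were compared as a description, since no pair could pass a test. For 15 pairs the log2 ratio of the 2 normalized counts was taken inside each library, which removes any factor common to the library, and tested with a 2-sided exact permutation test over libraries. With 3 libraries against 3 the smallest possible p is 0.1, and Benjamini-Hochberg adjustment over the 45 tests gives 0.214 for it, so no pair can pass the threshold. Within the labelled batches, whose numbers pair the libraries, the differences had 1 sign in all 3 batches for 11, 11 and 9 of the 15 pairs (knockout against wild type, rescue against knockout, rescue against wild type), and an exact sign-flip test over 3 batches, an alternative chosen after seeing the data, cannot go below 0.25. FMNL2/FMNL1 was -2.44, -3.26 and -2.74 in the wild type, against -6.19, -7.37 and -6.37 in the knockout and -1.97, -2.27 and -2.14 in the rescue. The mean shift was -3.83 in the knockout and 4.52 from knockout to rescue, both at the smallest p. For CORO2B/CORO2A the log2 ratio was 1.251, 0.88 and 1.20 in the wild type, against 3.70, 3.52 and 3.25 in the knockout and 1.34, 0.87 and 0.73 in the rescue. The mean difference was 2.38 in the knockout and -2.51 from knockout to rescue, both at the smallest p.

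Values for other families are given in the same way. From wild type to knockout the mean log2 ratio differed by -2.24 for PFN2/PFN1, -1.82 for CNN3/CNN2, 1.41 for GMFG/GMFB and -0.90 for TPM4/TPM3. From knockout to rescue it differed by 1.48, 1.18, 0.32 and 1.08 for the same pairs, with an exact p of 0.2 for GMFG/GMFB and 0.1 for the other differences of these 4 pairs. Of the 15 pairs, 8 reached the smallest p in the knockout, 8 in the rescue against the knockout and 5 in the rescue against the wild type. The shift was at least 1 log2 unit in 5, 6 and 1 pairs. Pairs of abundant genes differed less in the knockout: -0.25 for ACTG1/ACTB, 0.03 for MSN/EZR and -0.12 for CORO1C/CORO1A. Pairs with a much scarcer member also differed little there, -0.14 for CFL2/CFL1 and 0.16 for ACTN4/ACTN1. A small shift was thus not particular to abundant pairs. The remaining pairs differed by -0.09 (DIAPH2/DIAPH1), -0.22 (ENAH/EVL), 0.19 (TMSB10/TMSB4X) and -0.82 (FMNL3/FMNL1).

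**Figure D3:**
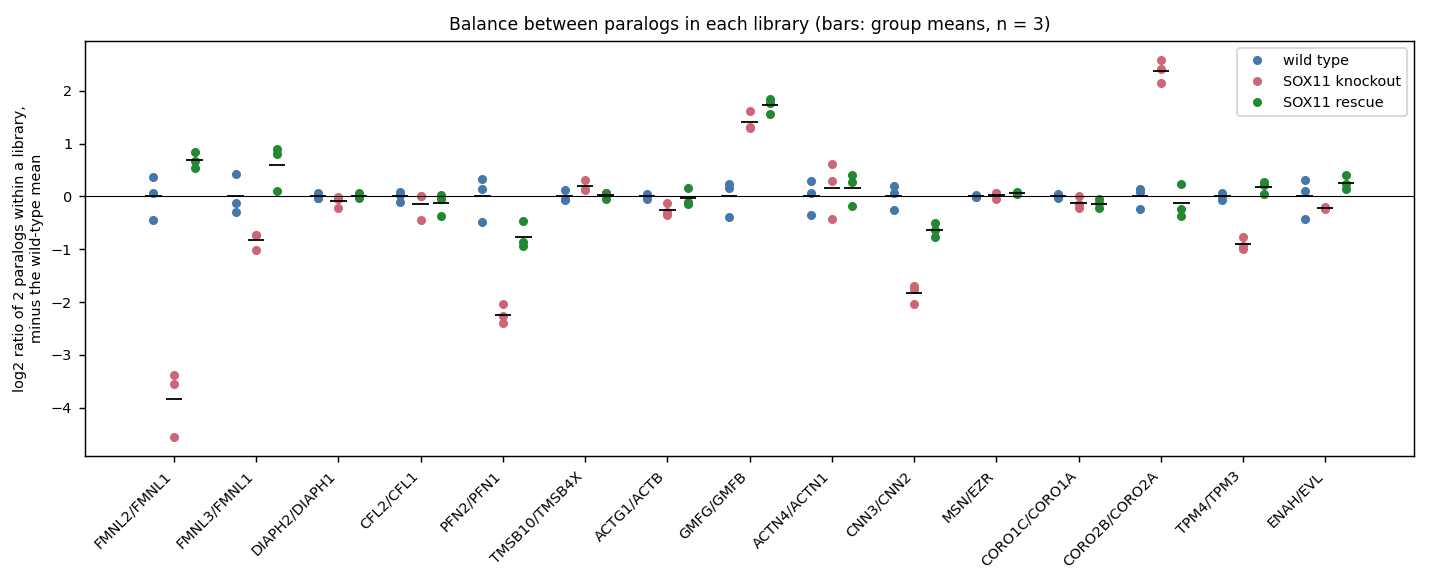
Log2 ratio of the normalized counts of 2 paralogs in each library, minus the wild-type mean of that pair, for 15 pairs (points are libraries, bars are means of 3). FMNL2/FMNL1, PFN2/PFN1 and CNN3/CNN2 sit low and CORO2B/CORO2A sits high in the knockout, and GMFG/GMFB stays high in the rescue.

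The 2-fold differences lay mostly among the less abundant members. Levels were compared between genes as normalized counts per kb of exon, averaged over the 9 libraries. TMSB10 (58753), ACTB (45556), ACTG1 (33559) and PFN1 (21228) were the most abundant, and TPM1 (6.59), ACTN1 (7.05) and SVIL (11.7) the least abundant of those tested. Per kb of the longest transcript ACTB (71408) was above TMSB10 (58753), and SVIL (14.2) was the lowest, below ACTN1 (16.0) and TPM1 (21.4). When the 57 were split by level per kb of exon into 3 sets of 19, the lowest set (6.59 to 146 normalized counts per kb) had 12 members called in some comparison and 11 at least 2-fold, with a median largest fold of 2.39. In the middle set (152.0 to 813) 13 were called and 6 at least 2-fold, with a median of 1.27. In the highest set (908 to 58753) 8 were called and 1, CNN3, at least 2-fold, with a median of 1.13. The same split was not made for all tested genes. Whether less abundant genes in general had larger folds was therefore not tested. The 58 members made up 1.76% to 1.91% of the normalized counts of each library, and the 6 with the highest counts, ACTB, ACTG1, PFN1, LCP1, CFL1 and TMSB10, were 61.7% to 65.7% of that share.

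**Figure D4:**
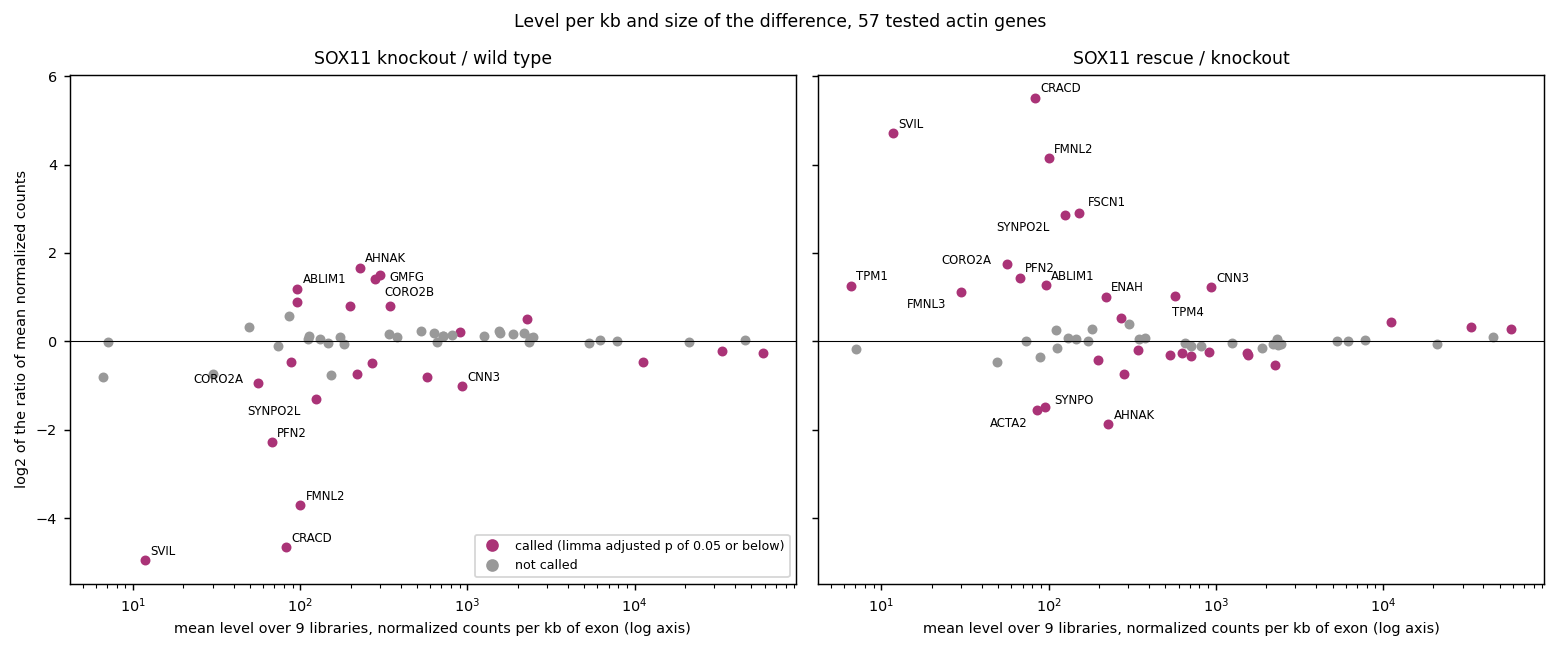
Mean level of each tested member in normalized counts per kb of exon over the 9 libraries (log axis) against the log2 ratio of group means, knockout to wild type on the left and rescue to knockout on the right, with called genes in purple. The most abundant genes, at the right of each plot, lie near 0, and SVIL, CRACD and FMNL2, all at about 100 or below per kb, lie farthest from it.

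Other genes of actin regulation were taken from 11 lists with 231 symbols outside the 59, also drawn up with earlier results known, of which 172 were tested. In the knockout 53 were called (30.8%, against 12.7% of all tested genes), 19 higher and 34 lower. In the rescue against the knockout 70 were called (40.7%, against 22.1%), 45 higher and 25 lower. In the rescue against the wild type 13 were called (7.56%, against 4.07%), 12 higher and 1 lower. The counts of both rescue comparisons include MYO6, which met the filter through the rescue libraries alone. List genes that are not named were not examined for this. The median log2 differences of the 172 genes were -0.03, 0.05 and 0.02, beside 0.00, -0.01 and 0.00 over all tested genes.

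By fold, the monomer and capping list held the deepest falls named from these other lists. In the knockout 5 of its 20 tested genes were called lower and 2 higher, beside 7.37% and 5.36% of all. TMSB15A, a thymosin, had 209 ± 14.0 normalized counts in the wild type, against 3.92 ± 1.54 in the knockout and 379 ± 6.87 in the rescue, 53.3-fold lower in the knockout (adjusted p = 5.15e-07). CARMIL1, which takes capping protein off filament ends, had 52.8 ± 10.7 normalized counts in the wild type, against 3.71 ± 1.39 in the knockout and 54.8 ± 9.38 in the rescue, 14.2-fold lower in the knockout (adjusted p = 1.74e-04). Both genes met the filter through the wild type and the rescue alone, their means in the knockout are close to the floor of 3 reads, and TMSB15A has near-identical relatives whose reads can be split. Other crosslinkers and side binders were called in 14 of 27 genes in the knockout (51.9%, against 12.7%), 4 higher and 10 lower. DBN1, drebrin, was 2.19-fold lower and MARCKSL1 2.00-fold lower in the knockout.

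Nucleation partners outside the list were taken from 3 small lists. None of the other 6 ARP2/3 subunits was called in the knockout with limma (0 at an unadjusted p of 0.05 or below), and ARPC5L was 1.19-fold lower in the rescue than in the knockout (adjusted p = 0.0249). In the WAVE complex list 3 of 13 (23.1%, against 12.7% of all tested genes) were called in the knockout: CYFIP1 was 4.03-fold lower, CYFIP2 1.18-fold lower and the WASP partner WIPF1 1.236-fold higher. NCKAP1L, the WAVE subunit of blood cells, was 1.297-fold higher in the rescue than in the wild type (adjusted p = 0.00323). Of 5 other nucleators tested, INF2 and SPIRE2 (40%, against 7.37% of all tested genes called lower) were called lower in the knockout, 1.46-fold and 1.75-fold. Each of these calls was lost when some single batch was left out. In the knockout CYFIP1 was lost without batch 3 (adjusted p = 0.0643), CYFIP2 without wild-type replicate 1 or 2, any 1 knockout library, rescue replicate 3 or any 1 batch, or with no filter or with only the 2 groups in the fit (adjusted p = 0.0534 to 0.177) and WIPF1 without knockout replicate 3 or any 1 batch (adjusted p = 0.0535 to 0.114). INF2 was lost without batch 1 (adjusted p = 0.128) and SPIRE2 without wild-type replicate 3, knockout replicate 1 or 2 or any 1 batch (adjusted p = 0.0701 to 0.204). In the rescue ARPC5L was lost without knockout replicate 1 or 2, any 1 rescue library or any 1 batch (adjusted p = 0.0539 to 0.169) and NCKAP1L without batch 1 or 3 (adjusted p = 0.0533 to 0.0927).

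Myosins outside the list were called in 5 of 15 genes in the knockout, 2 higher and 3 lower, beside 12.7% of all tested genes. MYH10, the heavy chain of myosin IIB, had 169 ± 31.2 normalized counts in the wild type, against 46.7 ± 26.0 in the knockout and 355 ± 71.8 in the rescue, while MYH9 was not called. MYO6, the myosin that walks toward the pointed end, had 20.2 ± 5.57 normalized counts in the wild type, against 11.21 ± 3.54 in the knockout and 137 ± 8.22 in the rescue. MYO6 met the filter of 1 CPM in the 3 rescue libraries only, so it was selected through the group where it is high and no test is given. Membrane and adhesion links were called in 7 of 20, 3 higher and 4 lower, beside the same 12.7%. FNBP1L, an F-BAR protein that activates WASL, was 3.86-fold lower and TLN2, a talin, 2.10-fold higher in the knockout. In the list of the actin-responsive factor pair SRF and MRTF 2 of 6 tested genes were called (33.3%, against 12.7%), FHL1 and FHL3, 1.26-fold and 1.52-fold lower in the knockout. FHL1 was lost without any 1 wild-type library, any 1 knockout library, rescue replicate 2 or any 1 batch (adjusted p = 0.0523 to 0.217), and FHL3 without any 1 wild-type library, any 1 knockout library, rescue replicate 1 or any 1 batch, or with no filter, under quantile normalization or with only the 2 groups in the fit (adjusted p = 0.0531 to 0.286).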

How the data were processed

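RNA from 9 Z138 libraries (3 groups of 3) was sequenced. Per the submitters' processing notes, the tools include FastQC 0.11.9, Trimmomatic 0.40, kallisto 0.46.1 and, beside R 4.3.2, DESeq2 1.24.0, and the build is GRCh38.p13, with no role stated. Per the labels' protocols, libraries came from a TruSeq RNA v2 or a stranded total RNA kit, as paired-end or single-end reads; which of these applies to a given library is not stated. The authors deposited 1 table of log2 values for 16586 genes. Although it is named as log CPM, its values behave as variance-stabilized log2 values with a common minimum of 8.5985 in every library. Normalized counts were recovered as (y - c) squared over y, with y as 2 to the power of the value and c = 387.6, and the depth from their smallest steps. Of low values of single-transcript genes 83.8% to 98.5% were whole multiples of a step (tolerance 0.05), and over all genes 43.9% to 51.2%, so no count model was used to test genes. The step gave about 30800000 to 40800000 reads per library.

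Genes with at least 1 CPM in at least 3 libraries were tested (11542; 5044 were not). limma 3.58.1 (R 4.3.3) was fitted to the deposited log2 values of all 9 libraries, with group means, a trended prior and Benjamini-Hochberg adjustment over all tested genes. Batch and replicate number coincide in the labels and cross the groups. Residuals of same-numbered libraries correlated at 0.187 to 0.510, and 9 of 9 libraries correlated best with their own number, so the numbers pair the libraries. The replicate block was an alternative, given where it changes a call. On simulated data for the knockout comparison (11542 genes, 50 changed per fold) 16% of 1.25-fold, 64% of 1.5-fold, 82% of 2-fold and 98% of 4-fold changes were recovered. Of the calls, 5.11% were unchanged genes. The simulated counts were independent draws from a count model (negative binomial) without a batch effect, and fewer genes were changed than were called in the data. These rates therefore describe that setting and may not hold for the real fit.

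The members, lists and pairs were chosen with earlier results of these data known. Values in every library are given for members called with at least a 2-fold difference and for the highest member per kb of each role; other called members have group means, and up to 4 genes of each other list with the smallest adjusted p could be named. Gene positions and exon lengths are from GENCODE 29 (16461 genes matched) and promoters from RefSeq (GRCh38.p14). Alternatives were the block, 2 other filters, log2(CPM + 1), 2 other scalings, fits of 2 groups, and leaving out each library or batch. Some results of the other lists are not reported here.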

Additional observations from a re-analysis of the deposited data

How the results depend on the processing

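No member called in a comparison changed direction under any of the alternatives tried, 19 per call and 18 for TPM1 in the rescue against the knockout, which did not pass the stricter filter. Leaving out a library or a batch kept a member call in 654 cases and ended it in 126, the other settings kept it in 436 and ended it in 18, and 16 of 23, 16 of 30 and 3 of 12 member calls (knockout against wild type, rescue against knockout, rescue against wild type) were lost under none. With the replicate block 2481, 3601 and 930 of the 11542 tested genes were called in the 3 comparisons in the same order, against 1470, 2556 and 470 without it. Pathway list genes called in the rescue against the wild type went from 13 to 25. Members called with the block were 32, 32 and 16 of 57, to be set beside these blocked counts of all genes. Members reversed were 26, and the share of all tested genes reversed was not computed with the block. The block added the 15 member calls given in the report and ended none.

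When 1 library or 1 batch was left out, the 3 comparisons in the same order called 574 to 1395, 993 to 2970 and 111 to 427 genes, 16 to 24, 17 to 31 and 4 to 11 members, and 25 to 51, 38 to 74 and 2 to 11 pathway list genes, with 12 to 19 members reversed. The lowest counts came from leaving out a whole batch, which leaves 2 libraries per group. Scalings moved the median over all genes by less than 0.1 log2. Genes at a few reads, such as SVIL in the knockout, have folds limited by depth.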

Other observations

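Some members held the same place by batch in every group. Batch 2 gave the highest of the 3 libraries in the wild type, the knockout and the rescue alike for 10 of 57 members, FSCN1, ACTB, DIAPH1, LCP1, MYO1G, DIAPH2, FMNL3, SYNPO2L, CFL1 and TMSB4X, which is 17.5% beside 13.1% of all 11542 tested genes. It gave the lowest for 5 members, PFN2, CORO2B, RDX, FMNL2 and ARPC5, 8.77% beside 13.1%. Batch 1 gave the lowest for 10 members (17.5% beside 7.04%), among them AHNAK, GMFG and TPM4, and the highest for 5 (8.77% beside 6.93%), among them FMNL2 and SVIL. Batch 3 gave the highest for 4 members (7.02% beside 5.00%) and the lowest for 6 (10.5% beside 6.69%). No library of any group was removed for this. For FMNL2, PFN2, FSCN1 and SYNPO2L the knockout and wild-type libraries did not overlap. Their difference therefore has the same sign inside each of the 3 batches whatever the pairing, which is no check on the batch pattern.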
